A study of Mus musculus with 4 samples.

Results

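The data set comprised 10 genes of the BCL2 family of apoptosis regulators, taken by symbol from the 24369 genes listed in 4 RNA-seq libraries of mouse CD4 T cells. These were *Bcl2*, *Bcl2l1*, *Mcl1*, *Bax*, *Bak1*, *Bcl2l11*, *Bbc3*, *Pmaip1*, *Bid* and *Bad*. All 10 were found and all 10 passed the filter on low counts, which kept 14143 genes. Naive CD4 T cells from the spleens of WT C57BL/6 mice were activated under non-polarizing conditions with anti-CD3, anti-CD28 and IL-2, and transduced with a retrovirus on day 2 of culture. The empty vector group (EV RV) received MSCV-IRES-eGFP and the Tox group (Tox RV) received MSCV-Tox-IRES-eGFP, so cells of both groups carried a vector, expressed GFP and had been through infection. On day 5 both groups were restimulated for 5 h and sorted as CD4+ GFP+ cells. For the restimulation the paper's methods name anti-CD3 alone, whereas its results name anti-CD3 with anti-CD28. Where a pair of values is given for a vector, the first is replicate 1 and the second replicate 2. There were 2 libraries in each group, each group standing for 2 mice, so the spread within a group includes the difference between mice. The age and sex of the mice were not given for these cultures. *Tox* was driven by the viral promoter, and expression from it need not match the level or timing of the endogenous gene.

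BCL2 family proteins decide whether the outer membrane of the mitochondrion is breached, the step that commits most cells to the intrinsic pathway of apoptosis. BAX and BAK, encoded by *Bax* and *Bak1*, form the pores. BCL2, BCL-XL (*Bcl2l1*) and MCL1 hold them back. BH3-only proteins, among them BIM (*Bcl2l11*), PUMA (*Bbc3*), NOXA (*Pmaip1*), BID and BAD, bind the guardians or the pore formers and tip the balance towards death. In T cells, cytokines such as IL-2 sustain the guardians, and BIM is known for removing activated T cells when an immune response ends. Much of the control of MCL1, BID and BAD acts on the protein, which RNA-seq does not measure.

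The libraries were deep for these genes, with 46989997 to 74548723 expected counts each and at least 313 counts for every gene of the 10 in every library. *Tox* lay on the side of the label in each library, at 11.7 and 5.73 CPM (counts scaled for library size by TMM) in the EV RV libraries and 121 and 99.9 CPM in the Tox RV libraries. EV RV replicate 1 stood apart. It lay at -53.8 on the first principal component, which held 58.0% of the variance, and the other 3 libraries lay between 5.70 and 25.8. The 45S pre-rRNA took 24.7% of the counts in that library and 7.14% to 11.97% in the others. All 6 CD4 T cell markers were expressed, with a summed level of 1575 to 2274 CPM in EV RV and 1819 to 2046 CPM in Tox RV libraries. The sums were 3.88 to 4.65 and 4.26 to 4.77 CPM for the 2 CD8 T cell markers, 1.16 to 1.62 and 1.42 to 1.52 CPM for the 4 B cell markers, and 0.933 to 1.40 and 0.925 to 1.33 CPM for the 5 myeloid markers. The 4 NK cell markers summed to 52.0 and 12.6 CPM with the empty vector against 28.1 and 7.04 CPM with Tox, with the defining marker *Ncr1* at 0 counts throughout, as was *Ms4a1* among the B cell markers. The part of these differences in the results was not tested. The fold changes of the 10 genes and the counts of the gene lists are also given without EV RV replicate 1.

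A difference between Tox RV and EV RV cells at an adjusted p-value below 0.05 was found for 0 of the 10 genes (quasi-likelihood test of edgeR, Benjamini-Hochberg adjusted over 14143 genes), a threshold that 0% of all genes passed. Even *Tox*, 12.8-fold higher in Tox RV cells, had an adjusted p-value of 0.490 in this test, so a lack of calls does not show a lack of change. The same 10 genes gave 0 calls with DESeq2, which called 0.156% of all genes. At an unadjusted p-value below 0.05 there was 1 gene, *Bcl2l11*, against 3.62% of all genes tested. The median size of the log2 fold change was 0.14 over the 10 genes and 0.21 over all genes tested. The Tox RV pair lay above the EV RV pair without overlap for 1 of the 10 genes (*Bax*) and below it for 3 (*Bak1*, *Bcl2l11* and *Bad*). Such arrangements held for 18.6% and 17.4% of the 14143 genes. In bulk RNA, fewer cells of a type and less RNA per cell cannot be told apart.

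**Figure D1:**
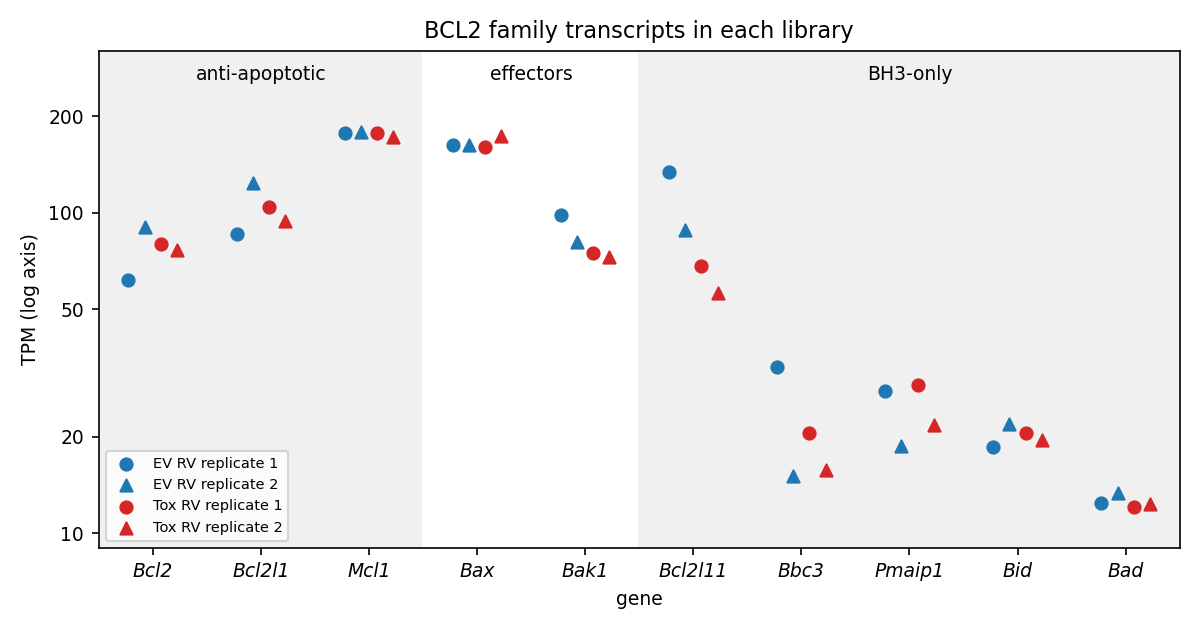
TPM of the 10 genes (log axis) in each of the 4 libraries, blue for EV RV and red for Tox RV, circles for replicate 1 and triangles for replicate 2, with shading by role. *Mcl1* and *Bax* were the highest at 160.1 to 179 TPM in every library, *Bcl2l11* was spread from 56.0 to 134 TPM with the Tox RV pair wholly below the EV RV pair, and *Bad* was the lowest at 12.1 to 13.4 TPM.

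Among the guardians, *Mcl1* was the most abundant by TPM and the steadiest. It was at 355 and 377 CPM with the empty vector against 385 and 374 CPM with Tox. The highest library was 1.09 times the lowest and only 2.02% of genes tested varied less. The log2 fold change was 0.05 (standard error, SE, 0.16, adjusted p = 0.952 by edgeR), with a 95% interval from -0.34 to 0.44, and 0.0038 without EV RV replicate 1. On the TPM scale the order was the opposite, with 177 and 179 TPM with the empty vector against 176.8 and 172 TPM with Tox, so the sign of this small difference depended on the scale. *Mcl1* lies on chromosome 3 of mm10 (95658788 to 95663176, plus strand). Its protein is short-lived and is needed for the survival of T cells at most stages.

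*Bcl2* was at 200.4 and 305 CPM with the empty vector against 282 and 278 CPM with Tox. The Tox RV libraries lay within the range of the EV RV libraries, and the group means were 279.9 ± 2.54 and 253 ± 74.1 CPM (SD, n = 2 each). Tox RV over EV RV gave a log2 fold change of 0.15 (SE 0.24, adjusted p = 0.919 by edgeR, 95% interval -0.44 to 0.73). It was -0.13 without EV RV replicate 1 and 0.49 without EV RV replicate 2. *Bcl2*, on chromosome 1 of mm10 (106538178 to 106714274, minus strand), overlaps the antisense gene *D630008O14Rik*, and use of strand in counting was not stated. *D630008O14Rik* was not among the genes listed in the libraries, so its level is not known.

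*Bcl2l1*, which encodes BCL-XL, a guardian induced by CD28 signals, was at 118 and 179 CPM with the empty vector against 156 and 141 CPM with Tox. The EV RV libraries again enclosed the Tox RV libraries. On the log2 scale the fold change was 0.0046 (SE 0.24, adjusted p = 0.997 by edgeR), with a 95% interval from -0.59 to 0.60. It ran from -0.27 without EV RV replicate 1 to 0.34 without EV RV replicate 2. The gene lies on chromosome 2 of mm10 (152780668 to 152831728, minus strand). *Bcl2* and *Bcl2l1* thus had the same order of libraries at their extremes, lowest in EV RV replicate 1 and highest in EV RV replicate 2. EV RV replicate 1 was the highest or the lowest library for 8 of the 10 genes, against 74.1% of all genes tested.

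Of the pore formers, *Bax* (chromosome 7 of mm10, 45461697 to 45466898, minus strand) was at 69.9 and 73.5 CPM with the empty vector against 75.0 and 81.3 CPM with Tox. The Tox RV pair lay wholly above the EV RV pair, by a small margin. The log2 fold change was 0.12 (SE 0.16, adjusted p = 0.905 by edgeR), with a 95% interval from -0.28 to 0.53, and 0.08 without EV RV replicate 1. On the TPM scale the groups overlapped, with 162 TPM in each EV RV library and 160.1 and 174 TPM in Tox RV replicates 1 and 2. *Bax* shares exons with the annotated gene *Gm45808* on the same strand, which was not among the genes listed in the libraries.

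*Bak1* (chromosome 17 of mm10, 27019810 to 27029009, minus strand) had a difference of the opposite sign. It was at 109.6 and 95.1 CPM with the empty vector against 91.0 and 88.5 CPM with Tox, with the Tox RV pair wholly below the EV RV pair. Tox RV over EV RV gave a log2 fold change of -0.19 (SE 0.17, adjusted p = 0.897 by edgeR), with a 95% interval from -0.60 to 0.23, and -0.09 without EV RV replicate 1. *Ggnbp1* overlaps *Bak1* on the other strand, but it had at most 51.7 expected counts in a library where *Bak1* had at least 4594.

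*Bcl2l11* had the largest difference of the 10 genes. It encodes BIM, which binds all of the guardians and is among the most potent of the BH3-only proteins. It was at 322 and 219 CPM with the empty vector against 175 and 145 CPM with Tox; the rounded counts were 13572, 16698, 11087 and 7504. The Tox RV pair lay wholly below the EV RV pair, and EV RV replicate 1 was the highest of the 4. The group levels were 271 ± 72.3 CPM with the empty vector and 159.9 ± 21.6 CPM with Tox (SD, n = 2 each). On the log2 scale the fold change was -0.76 (SE 0.24), a level 1.69-fold lower, with a 95% interval from -1.35 to -0.16. In edgeR's quasi-likelihood test the unadjusted p-value was 0.0210, rank 186 of 14143 genes, and the adjusted p-value was 0.897. DESeq2 gave the same log2 fold change with an adjusted p-value of 0.596. The difference therefore did not pass the test over all genes.

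The size of the *Bcl2l11* difference turned on the EV RV libraries. Leaving out EV RV replicate 1 gave -0.46 (SE 0.16, adjusted p = 0.605 by edgeR). Without EV RV replicate 2 it was -1.002, and it then passed the threshold with an adjusted p-value of 0.0422, in a fit where 600 genes were called. Without Tox RV replicate 1 or 2 it was -0.91 and -0.62. *Bcl2l11* lies on chromosome 2 of mm10 (128126038 to 128162547, plus strand), and no other annotated gene overlaps its exons. RSEM counted reads against 5 transcripts of *Bcl2l11*, and the mean transcript length, weighted by abundance, was 4175 and 4082 bases with the empty vector against 4092 and 4121 bases with Tox. The Tox RV values lay between the EV RV values, so the groups overlapped in mean length.

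**Figure D2:**
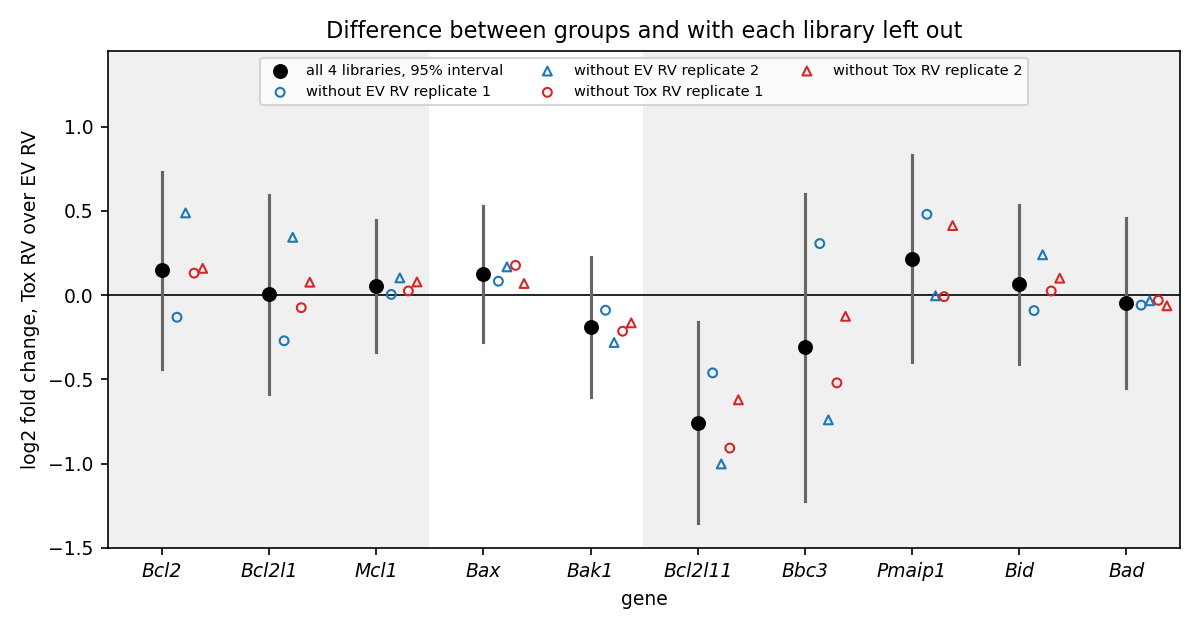
Log2 fold change of Tox RV over EV RV for each of the 10 genes, as black points with 95% intervals from edgeR's quasi-likelihood fit, and open symbols for the fits with 1 library left out. The interval of *Bcl2l11* (-1.35 to -0.16) does not reach 0 and the other 9 intervals do, and the open symbols of *Bbc3* lie on both sides of 0.

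*Bbc3*, which encodes PUMA, a target of p53 and of FOXO factors, was at 36.2 and 17.4 CPM with the empty vector against 24.4 and 18.7 CPM with Tox. The EV RV libraries held both the highest and the lowest value, with the highest 2.08 times the lowest. The log2 fold change was -0.31 (SE 0.37, adjusted p = 0.905 by edgeR, 95% interval -1.22 to 0.60), and 0.31 without EV RV replicate 1. *Bbc3* lies on chromosome 7 of mm10 (16308393 to 16318205, plus strand). Its direction thus rested on 1 EV RV library. That of *Bcl2l11* was kept in every fit with a library left out, which largely follows from its groups not overlapping. The directions of *Bax*, *Bak1*, *Bad* and *Mcl1* were also kept in these fits.

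*Foxo1*, which encodes a FOXO factor, and *Trp53*, which encodes p53, were highest in EV RV replicate 1, like *Bcl2l11* and *Bbc3*. So were 37.0% of all genes tested. *Foxo1* was at 166 and 81.1 CPM with the empty vector against 94.4 and 79.8 CPM with Tox. *Trp53* was at 115 and 64.8 CPM with the empty vector against 66.4 and 65.6 CPM with Tox. EV RV replicate 2 lay below both Tox RV libraries for *Trp53* and *Bbc3* and between them for *Foxo1*, whereas for *Bcl2l11* it lay above both. *Trp53* was named after its values were seen. The part of *Foxo1* and *Trp53* in the levels of *Bcl2l11* and *Bbc3* was not tested.

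Promoter windows are shown for *Bcl2l11* and *Bbc3* because these BH3-only genes varied most among the libraries, by 2.22-fold and 2.08-fold between the lowest and the highest CPM. Each window runs from 250 bases before to 50 bases after a RefSeq transcript start on GRCm38.p6, the assembly of mm10, and is written 5′ to 3′ on the strand of the gene. Of the 10 genes, 9 had a window, and together they had 15. *Pmaip1* had no window and was not searched. On either strand of these windows, the FOXO motif GTAAACA and the AP-1 motif TGANTCA (which reads the same on both strands) were searched. AP-1 is the family of BATF and JUNB, which the study examined beside Tox. For *Bcl2l11* and *Bbc3* the window shown is that which held the FOXO motif, marked in capitals. The *Bcl2l11* window lies at chr2:128125788-128126087 on the plus strand and the *Bbc3* window at chr7:16310011-16310310 on the plus strand.
Bcl2l11: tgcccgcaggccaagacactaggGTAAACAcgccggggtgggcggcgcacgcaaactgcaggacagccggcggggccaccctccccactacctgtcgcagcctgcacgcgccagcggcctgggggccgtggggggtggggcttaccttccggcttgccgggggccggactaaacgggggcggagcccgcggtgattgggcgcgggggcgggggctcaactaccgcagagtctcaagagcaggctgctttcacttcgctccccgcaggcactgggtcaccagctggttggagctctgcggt
Bbc3: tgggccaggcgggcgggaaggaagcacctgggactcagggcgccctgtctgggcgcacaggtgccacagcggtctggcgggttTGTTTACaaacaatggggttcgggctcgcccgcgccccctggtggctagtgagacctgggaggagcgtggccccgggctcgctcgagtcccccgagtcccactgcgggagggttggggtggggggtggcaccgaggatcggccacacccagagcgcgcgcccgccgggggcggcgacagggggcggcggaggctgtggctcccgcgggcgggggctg

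The FOXO motif was matched 227 bases before the start in the *Bcl2l11* window and 167 bases before the start in that of *Bbc3*, on opposite strands. It was matched in no other window of the 9 genes searched, including a further window of *Bcl2l11* and 2 further windows of *Bbc3*, 1 of which overlaps the window shown. Among all 32851 promoter windows of 300 bases, 3.65% held it. The AP-1 motif was matched in 0 of the 15 windows, against 7.81% of all windows. The 2 motifs cannot overlap in these windows, since AP-1 had no match. A match of letters is not evidence of binding, and regulatory elements outside these windows were not searched.

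*Pmaip1*, which encodes NOXA, a BH3-only protein that pairs mainly with MCL1, was at 41.6 and 29.5 CPM with the empty vector against 47.1 and 35.4 CPM with Tox. The groups overlapped. Tox RV over EV RV gave a log2 fold change of 0.22 (SE 0.25, adjusted p = 0.902 by edgeR), with a 95% interval from -0.40 to 0.83. It was 0.48 without EV RV replicate 1 and -0.0044 without EV RV replicate 2. *Pmaip1* lies on chromosome 18 of mm10 (66458533 to 66465565, plus strand).

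*Bid* and *Bad* were at the lower end of the 10 genes and varied little. *Bid*, whose product is cleaved by caspase-8 to link death receptors to mitochondria, was at 19.5 and 24.3 CPM with the empty vector against 23.4 and 22.4 CPM with Tox, with the Tox RV libraries inside the EV RV range. Its log2 fold change was 0.06 (SE 0.19, adjusted p = 0.952 by edgeR, 95% interval -0.41 to 0.54), and -0.09 without EV RV replicate 1. *Bad*, whose product is held inactive by phosphorylation while growth factors signal, was at 7.42 and 7.49 CPM with the empty vector against 7.11 and 7.32 CPM with Tox. The Tox RV pair lay wholly below the EV RV pair, but the highest was 1.05 times the lowest, giving a log2 fold change of -0.05 (SE 0.20, adjusted p = 0.973 by edgeR, 95% interval -0.55 to 0.46), and -0.06 without EV RV replicate 1. Both genes overlap a neighbour on the other strand. *Bid* (chromosome 6 of mm10, 120891930 to 120916853) overlaps *Bcl2l13*, which had 2206 to 3565 expected counts in a library where *Bid* had 822 to 1850. *Bad* (chromosome 19 of mm10, 6941861 to 6951899) overlaps *Gpr137*, which had 189 to 298 expected counts against 313 to 570 for *Bad*. With use of strand not stated, reads of these neighbours cannot be told apart where they overlap, and the levels of *Bid* and *Bad* are uncertain to that extent.

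TPM values are per length and allow the genes to be ranked against each other. In EV RV cells the order of mean TPM was *Mcl1* (178), *Bax* (162), *Bcl2l11* (111), *Bcl2l1* (105), *Bak1* (89.5), *Bcl2* (76.0), *Bbc3* (24.1), *Pmaip1* (23.2), *Bid* (20.3) and *Bad* (12.9). Neighbours from *Bcl2l11* to *Bcl2* overlapped in their library ranges, as did those from *Bbc3* to *Bid*. In Tox RV cells *Bcl2l11* stood sixth at 62.2 ± 8.70 TPM (SD, n = 2), below *Bcl2l1* (99.3), *Bcl2* (78.1) and *Bak1* (73.9), and its library range overlapped with neither neighbour. *Mcl1* (174) and *Bax* (167) remained the highest there, with overlapping ranges. *Pmaip1* (25.3), *Bid* (20.05), *Bbc3* (18.2) and *Bad* (12.2) made up the lower end in Tox RV cells, and of these neighbours *Bid* and *Bbc3* overlapped.

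The ratio of *Bcl2l11* to its guardians was compared within each library, since such a ratio does not depend on the scaling between libraries. The ratio of *Bcl2l11* to *Bcl2* TPM was 2.17 and 0.981 with the empty vector against 0.858 and 0.733 with Tox. The Tox RV pair lay wholly below the EV RV pair, and the difference of the mean log2 ratios, Tox RV minus EV RV, was -0.88. The ratio of *Bcl2l11* to *Mcl1* TPM was 0.754 and 0.496 with the empty vector against 0.387 and 0.326 with Tox, a difference of -0.78 on the log2 scale. Without EV RV replicate 1 these differences were -0.31 and -0.48. For both ratios the exact two-sided permutation test gave p = 0.333, the smallest value that 2 libraries against 2 allow, and the adjusted value over the 3 ratios compared was 0.5. The ratio of *Bax* to *Bcl2* TPM was 2.63 and 1.79 with the empty vector against 2.01 and 2.27 with Tox. Here the Tox RV libraries lay inside the EV RV range (difference -0.02 on the log2 scale, exact permutation p = 1), and the difference was 0.25 without EV RV replicate 1.

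**Figure D3:**
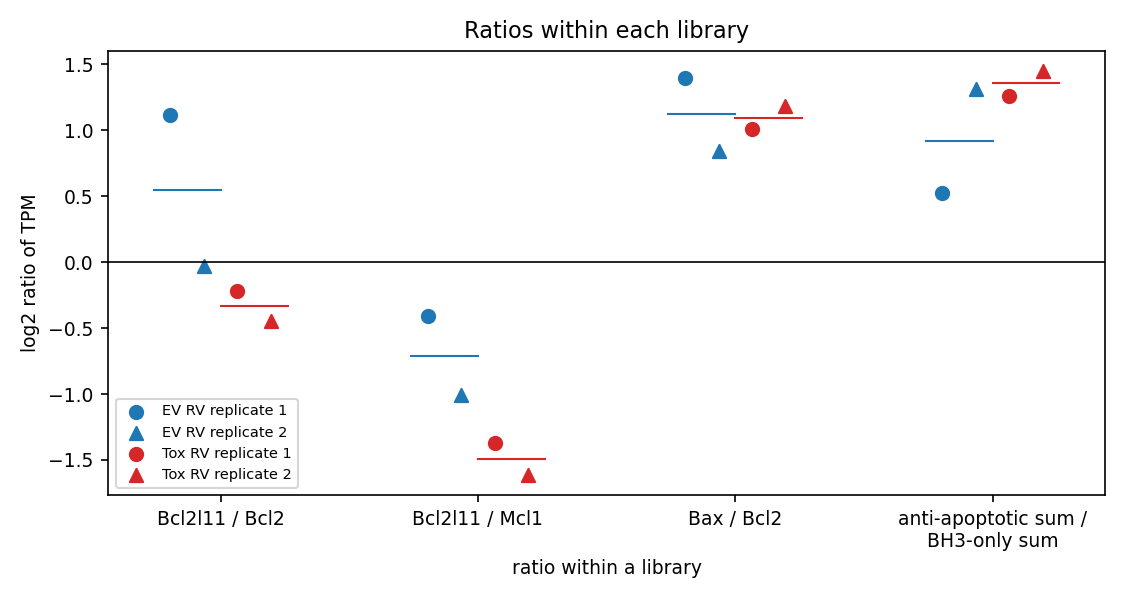
Log2 ratios of TPM within each library, blue for EV RV and red for Tox RV, circles for replicate 1 and triangles for replicate 2, with lines at the group means. For *Bcl2l11* over *Bcl2* and over *Mcl1* the Tox RV points lie below the EV RV pair, with EV RV replicate 1 highest at 1.12 and -0.41, and the groups overlap in the *Bax* to *Bcl2* ratio and in the ratio of the anti-apoptotic to the BH3-only sum.

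By role, the 3 guardians summed to 325 and 392 TPM with the empty vector against 361 and 342 TPM with Tox. The 5 BH3-only genes summed to 225 and 158 TPM with the empty vector against 150.4 and 125 TPM with Tox, a sum in which *Bcl2l11* had the largest share. The ratio of the guardian sum to the BH3-only sum was 1.44 and 2.49 with the empty vector against 2.40 and 2.73 with Tox, so the groups overlapped, and it was lowest in EV RV replicate 1. The guardians held 40.1% of the transcripts of all 10 genes in EV RV replicate 1 and 47.9% to 49.5% in the other 3 libraries. The 2 pore formers held 30.6% to 34.5% in every library. The makeup of the family in EV RV replicate 2 was therefore nearer to the Tox RV libraries than to EV RV replicate 1.

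Of 67 other genes of the apoptosis pathway in 8 lists, 65 were tested. In edgeR's quasi-likelihood test 0 passed an adjusted p-value of 0.05, 0 had an unadjusted p-value below 0.05, and DESeq2 called 0. Higher levels in Tox RV cells were found for 33 and lower levels for 32, at a median log2 fold change of 0.00012 against 0.0036 over all genes tested. The Tox RV pair lay wholly above the EV RV pair for 24.6% of them (16 genes) and below it for 16.9% (11 genes), against 18.6% and 17.4% of all genes tested. Without EV RV replicate 1, 30 of the 65 were higher and 35 lower, and the medians of 6 of the 8 lists changed sign.

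The closest relatives, the other guardians of the BCL2 family, were the list with the highest median. All 5 tested genes had a positive log2 fold change (median 0.36), and 4 had the Tox RV pair wholly above the EV RV pair, an arrangement held by 18.6% of all genes tested. Without EV RV replicate 1, 4 were higher and 1 lower (median 0.32). These 4 were the copies of *Bcl2a1*, the gene of A1, a guardian induced by NF-kappaB in activated lymphocytes. Whether each copy makes a working protein was not examined. RSEM splits reads that these near-identical genes share, which makes the 4 values dependent on each other and uncertain. Counts in a library were low for *Bcl2a1a* (0 to 25) and *Bcl2a1c* (15 to 67). *Bcl2a1b* was at 46.4 and 50.2 CPM with the empty vector against 71.8 and 52.2 CPM with Tox. Summed over the copies, the level was 89.7 and 95.7 CPM with the empty vector against 135 and 104 CPM with Tox, a log2 fold change of 0.37 (SE 0.19, unadjusted p = 0.109, adjusted p = 0.897 by edgeR). The sum was highest in Tox RV replicate 1, and its log2 fold change was 0.16 without that library and 0.32 without EV RV replicate 1. The fifth, *Bcl2l2*, which encodes BCL-W, had overlapping groups and a log2 fold change of 0.11, or -0.099 without EV RV replicate 1. *Bcl2l10* had at most 2 counts in a library and was not tested.

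Among the other BH3-only and BCL2-like genes, 3 of 9 tested were higher and 6 lower (median -0.05). The count turned to 6 higher and 3 lower without EV RV replicate 1 (median 0.07) and likewise without Tox RV replicate 1 (median 0.10). *Hrk*, with at most 3 counts in a library, was not tested. The most abundant over the 4 libraries were *Bnip3l*, a receptor for the removal of mitochondria, at 60.1 ± 7.18 CPM in EV RV and 57.8 ± 9.56 CPM in Tox RV cells (SD, n = 2 each), and *Bcl2l13*, at 49.6 ± 3.86 and 48.1 ± 0.928 CPM (SD, n = 2 each). *Bnip3*, named after its values were seen, was at 31.5 CPM in EV RV cells and, above *Bcl2l13*, at 52.5 CPM in Tox RV cells on average, with overlapping groups (log2 fold change 0.74, or 0.17 without EV RV replicate 1). *Bmf*, whose product is tethered to a dynein light chain as BIM is, and which was named after its values were seen, was at 2.89 and 0.788 CPM with the empty vector against 0.996 and 1.04 CPM with Tox.

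Downstream of the mitochondrion, 8 of 14 genes of the apoptosome, caspases and nuclease were higher and 6 lower (median 0.01), and without EV RV replicate 1 it was 4 and 10 (median -0.03). *Cycs*, which encodes cytochrome c, was at 133 and 222 CPM with the empty vector against 219 and 219.8 CPM with Tox. Of the 5 inhibitors of apoptosis 1 was higher and 4 were lower (median -0.11), as without EV RV replicate 1 (median -0.16). *Birc6* was at 667 ± 31.7 CPM in EV RV and 618 ± 6.59 CPM in Tox RV cells (SD, n = 2 each), and *Xiap*, which blocks caspases directly, at 110.1 ± 13.6 and 93.2 ± 8.54 CPM (SD, n = 2 each). In this list *Birc2* and *Birc3*, named after their values were seen and encoding the paired ubiquitin ligases of TNF receptor signalling, lay in opposite directions without overlap, with log2 fold changes of 0.43 (SE 0.17) and -0.37 (SE 0.16), each at an adjusted p-value of 0.897 by edgeR.

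In the death receptor pathway 5 of 8 genes were higher and 3 lower (median 0.12), and 3 and 5 without EV RV replicate 1 (median -0.0039). The most abundant over the 4 libraries were *Cflar*, which encodes the caspase-8 inhibitor c-FLIP, at 184 ± 22.1 CPM in EV RV and 193 ± 21.2 CPM in Tox RV cells, and *Ripk1*, at 70.3 ± 12.2 and 79.1 ± 2.82 CPM (SD, n = 2 each). *Fasl*, the ligand of FAS and named after its values were seen, was above *Ripk1* in both EV RV libraries, at 72.0 and 82.0 CPM with the empty vector against 68.1 and 45.4 CPM with Tox, without overlap (log2 fold change -0.44, or -0.17 without Tox RV replicate 2). Among the genes of protein turnover and mitochondrial partners 7 of 9 were higher and 2 lower (median 0.06), and 4 and 5 without EV RV replicate 1 (median -0.04). *Huwe1*, which encodes a ubiquitin ligase of MCL1, was at 808 and 701 CPM with the empty vector against 596 and 574 CPM with Tox, without overlap (log2 fold change -0.37, SE 0.17, adjusted p = 0.897 by edgeR). *Usp9x*, which encodes a deubiquitinase of MCL1, was at 299 CPM in each group on average.

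Of p53 and its targets, 3 of 11 were higher and 8 lower (median -0.15), but 6 were higher and 5 lower without EV RV replicate 1 (median 0.02). *Ccng1* was at 381 ± 27.4 CPM in EV RV and 459 ± 5.96 CPM in Tox RV cells (SD, n = 2 each). *Trp53inp1* was at 347 and 130.3 CPM with the empty vector against 219.5 and 209 CPM with Tox, again with the extremes in the EV RV libraries. Of the 4 other transcription factors of BH3-only genes 1 was higher and 3 were lower (median -0.19), but 2 and 2 without EV RV replicate 1 (median 0.01), with *Foxo1* at 124 ± 60.1 CPM in EV RV and 87.1 ± 10.3 CPM in Tox RV cells and *Foxo3* at 37.0 ± 6.34 and 31.2 ± 0.842 CPM (SD, n = 2 each).

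**Figure D4:**
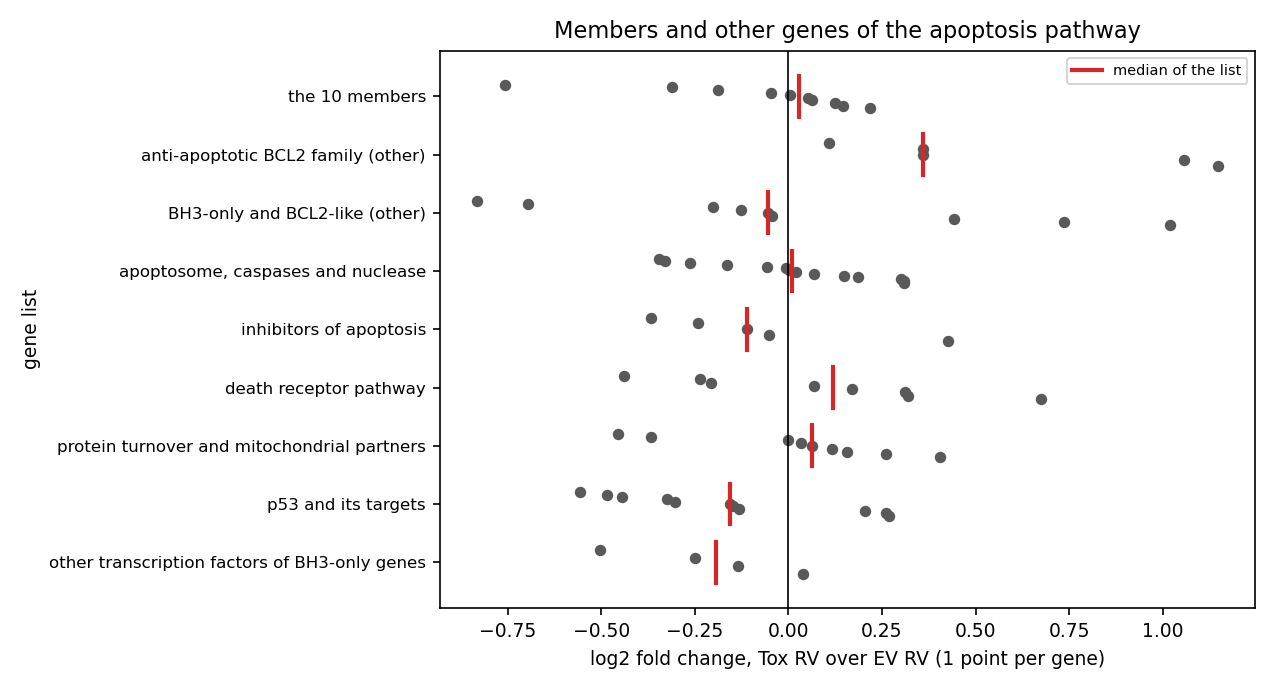
Log2 fold change of Tox RV over EV RV for the 10 genes and for the tested genes of 8 other lists of the apoptosis pathway, 1 point per gene, with the list median as a red line. The medians run from -0.19 to 0.36, each list other than the other guardians spans 0, and *Bcl2l11* at -0.76 is the leftmost of the 10 genes.

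Genes with the most similar profiles were sought among the 74 other tested members and list genes, as the smallest root mean square difference of log2 CPM centred on the mean of each gene over the 4 libraries. For *Bcl2* these were *Bcl2l2* (0.067) and *Mtch2* (0.076), for *Mcl1* they were *Bad* (0.064) and *Casp8* (0.065), and for *Bcl2l11* they were *Zmat3* (0.20) and *Cdkn1a* (0.22). *Zmat3* was at 141 and 75.2 CPM with the empty vector against 74.6 and 72.4 CPM with Tox. *Bcl2l11* was thus farther from its nearest profile than *Bcl2* or *Mcl1* was. This distance is not scaled by the spread of a gene, and *Bcl2l11* varied more. Its highest CPM was 2.22 times its lowest, against 1.52 times for *Bcl2* and 1.09 times for *Mcl1*. These likenesses rest on 4 libraries, which include EV RV replicate 1.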

How the data were processed

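RNA-seq was analysed in 4 libraries, 2 EV RV and 2 Tox RV, grouped by their labels. The authors checked reads with fastqc, aligned them with bowtie1 to mm10 transcripts and quantified genes with RSEM, 1 library per file. The deposited expected counts are RSEM estimates, not normalized. Reads shared between near-identical genes are divided by its model, and use of strand is not stated. The deposited TPM values are scaled to the same total in each library. A further deposited table was not used, because its columns are named TPM but do not sum to that total.

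Expected counts were rounded and filtered by filterByExpr (minimum count 10), which left 14143 genes. They were scaled by TMM and compared with edgeR 4.0.16 in R 4.3.3 (glmQLFit and glmQLFTest, no block, Benjamini-Hochberg adjustment). The standard error was the log2 fold change over the root of the F statistic. DESeq2 1.42.0, which the methods name, and limma 3.58.1 on log2(TPM + 1) and log2(TPM + 0.1) were alternatives. The edgeR and DESeq2 fits were tested on simulated data with 100 genes changed 2-fold and 100 changed 4-fold. With edgeR, 15% of the 2-fold and 82% of the 4-fold changes were recovered, with 8 false calls. With DESeq2 it was 42% and 85%, with 31 false calls. Most changes of 2-fold were thus missed. For the 4 libraries themselves, edgeR's quasi-likelihood test called 0 genes. It gave *Tox*, 12.8-fold higher in Tox RV cells, an adjusted p-value of 0.490. Whether these percentages hold for the 4 libraries, with EV RV replicate 1 apart from the others, was not tested. Replicates differed by more than counting error (chi-square per degree of freedom 447 for EV RV and 81.5 for Tox RV). Depth was 46989997 to 74548723 expected counts. The members and lists were chosen with earlier results of these data known. Named genes were all 10 members, list genes with an unadjusted p below 0.05 or else the 2 most abundant of a list, the *Bcl2a1* copies and the nearest profiles. A gene that this rule names is not reported here. Coordinates came from GENCODE M21 and promoter windows from RefSeq.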

Additional observations from a re-analysis of the deposited data

How the results depend on the processing

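The number of genes called over all genes, 0 in edgeR's quasi-likelihood test, was 22 with DESeq2, 22 with no filter on low counts, 16 under the replicate block, and 1 to 600 with each library left out. At an unadjusted p-value below 0.05 it was 512. The number of the 10 members called was 0 to 1 and of list genes 0 to 6 with each library left out, and the calls among them came without EV RV replicate 2, where EV RV is replicate 1 alone and is taken to vary like Tox RV. The list genes were *Cycs*, *Dynll1*, *Foxo1*, *Trp53*, *Trp53inp1* and *Zmat3*. The replicate block changed no member's call. The differences between replicates 1 and 2 of the groups correlated at 0.30 across genes, but a shared number is not stated to mark a mouse or a day.

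*Bcl2l11* was lower in Tox RV cells in 12 of 12 alternatives (log2 fold change -1.002 to -0.46, adjusted p 0.042 to 1.00). *Bak1* kept its direction (-0.28 to -0.06) and *Bax* too (0.04 to 0.25). Scaling by library totals moved the median of all genes to 0.12, and *Bad* to 0.074, below that median. *Bcl2l1* changed sign to -0.0017 with DESeq2 and with median-of-ratios scaling, -0.0039 with *Rn45s* taken out, -0.055 with limma on log2(TPM + 1) and on log2(TPM + 0.1), and -0.27 to 0.34 with each library left out. With the 2 limma fits *Mcl1* was -0.029 and -0.030 and *Bid* -0.010. With each library left out *Bcl2* ran from -0.13 to 0.49, *Bbc3* from -0.74 to 0.31, *Pmaip1* from -0.0094 to 0.48 and *Bid* from -0.092 to 0.24, and the *Bax* to *Bcl2* ratio ran from -0.30 to 0.25, at 0.25 without EV RV replicate 1 and 0.065 without Tox RV replicate 1. Without EV RV replicate 1, chosen after seeing the data, 9 of the 10 members did not overlap, against 70.4% of all genes tested, as 1 library against 2 overlaps less by construction. The causes were not tested. Each of the 10 members had at least 313 counts in every library, and the part of depth in the results was not tested. The intervals rest on 2 libraries a group.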
